A study of Mus musculus with 8 samples.

Results

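The genes described here are 47 genes of DNA replication and mitosis, 22 that act in replication and 25 that act in mitosis. They were chosen by name, with earlier results of these data known. Of these, 46 were measured among 18194 genes, each through its brightest probe set over the 8 arrays among those that carry a single gene symbol, and Ccnb1, which encodes cyclin B1, is not analysed here. All 46 had a mean above 5.44, the median of all values, in at least 1 group, and 45 had it in every group, Tyms being the exception. Chek1, a checkpoint kinase, was placed with replication and Mybl2, a transcription factor, with mitosis.

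The study measured gene expression in cultured mouse cells with 8 Affymetrix arrays. Embryoid bodies, which are aggregates of differentiating stem cells, were made from parthenogenetic stem cells and kept for 15 days (EB_PSC, 2 arrays). The undifferentiated parthenogenetic stem cells (PSC, 3 arrays) came from C57BL/6 mouse oocytes activated with strontium chloride and grown to blastocysts, so that their genome is of maternal origin. Embryonic stem cells of the line R1, kept on mouse embryonic fibroblasts with leukaemia inhibitory factor, served for comparison (ESC, 3 arrays). The labels give the strain for EB_PSC and PSC and only the line for ESC. PSC and ESC therefore differ in origin, in line and possibly in strain and culture at once, and these cannot be told apart. The labels do not say whether arrays of a group stand for separate cultures, so the p-values speak for the spread among these arrays alone, and that spread may be technical.

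Replication starts when Cdc6 and Cdt1 load the Mcm2 to Mcm7 helicase onto origins in G1 phase. Cdc45 and the GINS complex then turn it into an active helicase, and primase, the polymerases, the sliding clamp Pcna, the flap nuclease Fen1 and the ligase Lig1 copy the strands. Mitosis is driven by cyclins with Cdk1 and by the Aurora and Polo-like kinases, is held back by the spindle checkpoint until chromosomes are attached, and is ended by the anaphase-promoting complex with Cdc20. Many replication genes are known targets of E2F factors, and many mitotic genes are known to be controlled through a promoter element called the CHR, which the MuvB complex binds, together with CCAAT boxes bound by NF-Y. Mouse embryonic stem cells are known for a short G1 phase and fast division.

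The promoters of the classes differed in the words they held. RefSeq promoter windows of the build GRCm38.p6, running from 250 bases before to 50 bases after the gene start, were given for 39 of the 47 genes and not for Kif20a, Gins1, Gins2, Tpx2, Ccna2, Mcm4, Aurkb and Pole. On both strands, an E2F word (TTTCCCGC, TTTCGCGC, TTTGCCGC or TTTGGCGC) lay in the windows of 8 of 18 replication genes (44.4%) and 1 of 21 mitosis genes (4.76%), against 2.6% of all genes with a window. A CHR word (TTTGAA or TTCGAA) lay in 16 of 21 mitosis genes (76.2%) and 4 of 18 replication genes (22.2%), against 21.7% of all genes. CCAAT lay in 85.7% of the mitosis genes and 66.7% of the replication genes, against 41.1% of all genes. All 16 mitosis genes with a CHR word had CCAAT in the same window, and this pair occurred in 8.61% of all genes. A match is a string of letters and was not tested for binding.

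Stretches of 160 bases before the gene start are shown for 4 replication genes, with E2F words in capitals, because they are among the 8 replication genes that hold one, all of which fell in embryoid bodies. In Mcm6 and Mcm5 an E2F word on each strand overlaps the other, which gives a run of 12 capitals. The stretches are on the strand of the gene, at chr1:128359706-128359865 (minus strand) for Mcm6, chr8:75109349-75109508 (plus strand) for Mcm5, chr11:98907991-98908150 (plus strand) for Cdc6 and chrX:93632156-93632315 (minus strand) for Pola1.
Mcm6: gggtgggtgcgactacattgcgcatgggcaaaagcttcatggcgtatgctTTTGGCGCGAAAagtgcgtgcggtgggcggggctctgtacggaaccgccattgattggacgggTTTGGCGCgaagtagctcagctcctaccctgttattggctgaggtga
Mcm5: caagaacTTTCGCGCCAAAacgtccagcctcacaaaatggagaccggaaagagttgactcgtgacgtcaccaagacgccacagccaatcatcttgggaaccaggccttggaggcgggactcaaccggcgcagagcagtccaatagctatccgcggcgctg
Cdc6: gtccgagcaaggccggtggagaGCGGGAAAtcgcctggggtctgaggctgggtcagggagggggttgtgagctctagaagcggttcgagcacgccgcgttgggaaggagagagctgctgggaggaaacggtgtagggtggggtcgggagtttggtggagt
Pola1: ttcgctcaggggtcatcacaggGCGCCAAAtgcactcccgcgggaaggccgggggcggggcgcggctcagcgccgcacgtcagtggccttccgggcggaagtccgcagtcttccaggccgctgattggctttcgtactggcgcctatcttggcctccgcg

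For the mitosis genes, CHR words are in capitals. Prc1, Cdc20 and Top2a are shown because they hold the word and fell, and Cdk1 and Ube2c because they hold it and were not called in embryoid bodies. The CHR word begins 30 bases before the start in the Prc1 window shown, 18 bases before it in Cdc20 and 29 bases before it in Ube2c, where it lies on the opposite strand. Cdk1 holds it at 71 and 15 bases before the start, and Top2a holds 3 in the stretch shown, the nearest to the start on the opposite strand. TTCGAA reads the same on both strands. The stretches are at chr7:80294316-80294475 (plus strand) for Prc1, chr4:118437344-118437503 (minus strand) for Cdc20, chr11:99024190-99024349 (minus strand) for Top2a, chr10:69352913-69353072 (minus strand) for Cdk1 and chr2:164769769-164769928 (plus strand) for Ube2c.
Prc1: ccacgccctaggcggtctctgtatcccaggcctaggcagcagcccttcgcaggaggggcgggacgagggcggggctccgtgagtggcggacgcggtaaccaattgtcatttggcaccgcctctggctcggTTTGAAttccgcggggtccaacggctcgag
Cdc20: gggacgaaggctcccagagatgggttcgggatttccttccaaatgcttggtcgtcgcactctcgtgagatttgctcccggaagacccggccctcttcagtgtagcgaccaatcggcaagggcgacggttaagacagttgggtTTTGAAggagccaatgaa
Top2a: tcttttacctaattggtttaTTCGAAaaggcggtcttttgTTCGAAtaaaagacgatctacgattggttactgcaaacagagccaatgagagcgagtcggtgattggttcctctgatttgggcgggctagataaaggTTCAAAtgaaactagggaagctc
Cdk1: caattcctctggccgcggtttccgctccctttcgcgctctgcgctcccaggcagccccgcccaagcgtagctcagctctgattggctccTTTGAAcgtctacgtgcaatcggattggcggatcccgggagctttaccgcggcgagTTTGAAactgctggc
Ube2c: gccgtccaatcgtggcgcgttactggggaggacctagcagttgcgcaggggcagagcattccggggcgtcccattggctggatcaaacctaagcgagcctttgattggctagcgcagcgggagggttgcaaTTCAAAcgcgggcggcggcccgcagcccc

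**Figure D1:**
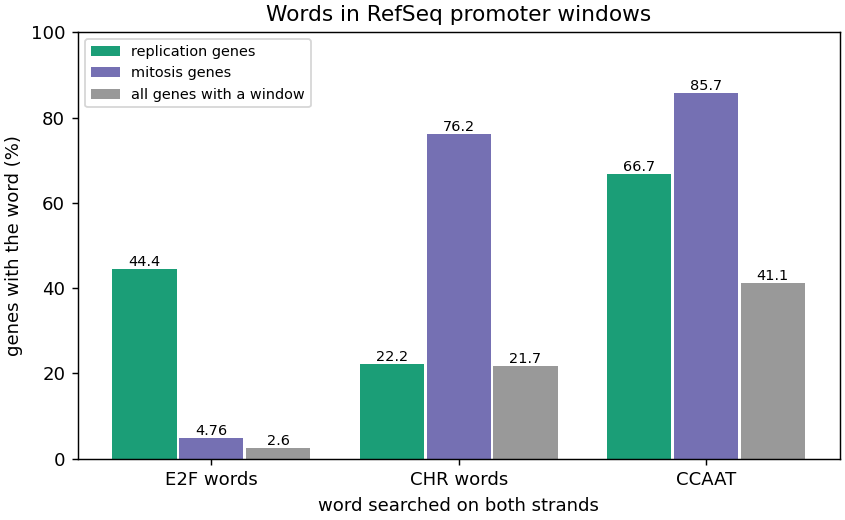
Share of genes (percent) whose promoter window holds an E2F word, a CHR word or CCAAT, for replication genes, mitosis genes and all genes with a window. E2F words lay in 44.4% of the replication genes and CHR words in 76.2% of the mitosis genes.

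The first comparison set embryoid bodies against the stem cells they came from. Of the 46 genes, 35 (76.1%) were lower in EB_PSC than in PSC at an adjusted p below 0.05 in limma's test over all genes and 0 were higher, where 25.2% of all 18194 genes were called lower and 18.8% higher. Genes with a group mean above the median of all values, as these have, were lower in 34.5% of cases. The median difference of the 46 genes was -0.81 log2 units, and that of all genes was -0.09. Replication genes fell in 18 of 22 cases with a class median of -0.75, and mitosis genes in 17 of 24 with a class median of -0.91. With an added limit of at least 1 log2 unit the counts were 9 and 12, against 7.42% of all genes. Both embryoid body arrays lay below all 3 PSC arrays for 39 of the 46 genes, and this held for 37.8% of all genes. After cyclic loess normalization the 46 genes fell by less, with class medians of -0.60 and -0.74, and over all genes 3566 were called lower and 4185 higher, where the deposited values gave 4578 lower and 3417 higher. In such bulk samples, fewer dividing cells and less RNA per cell cannot be told apart.

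**Figure D2:**
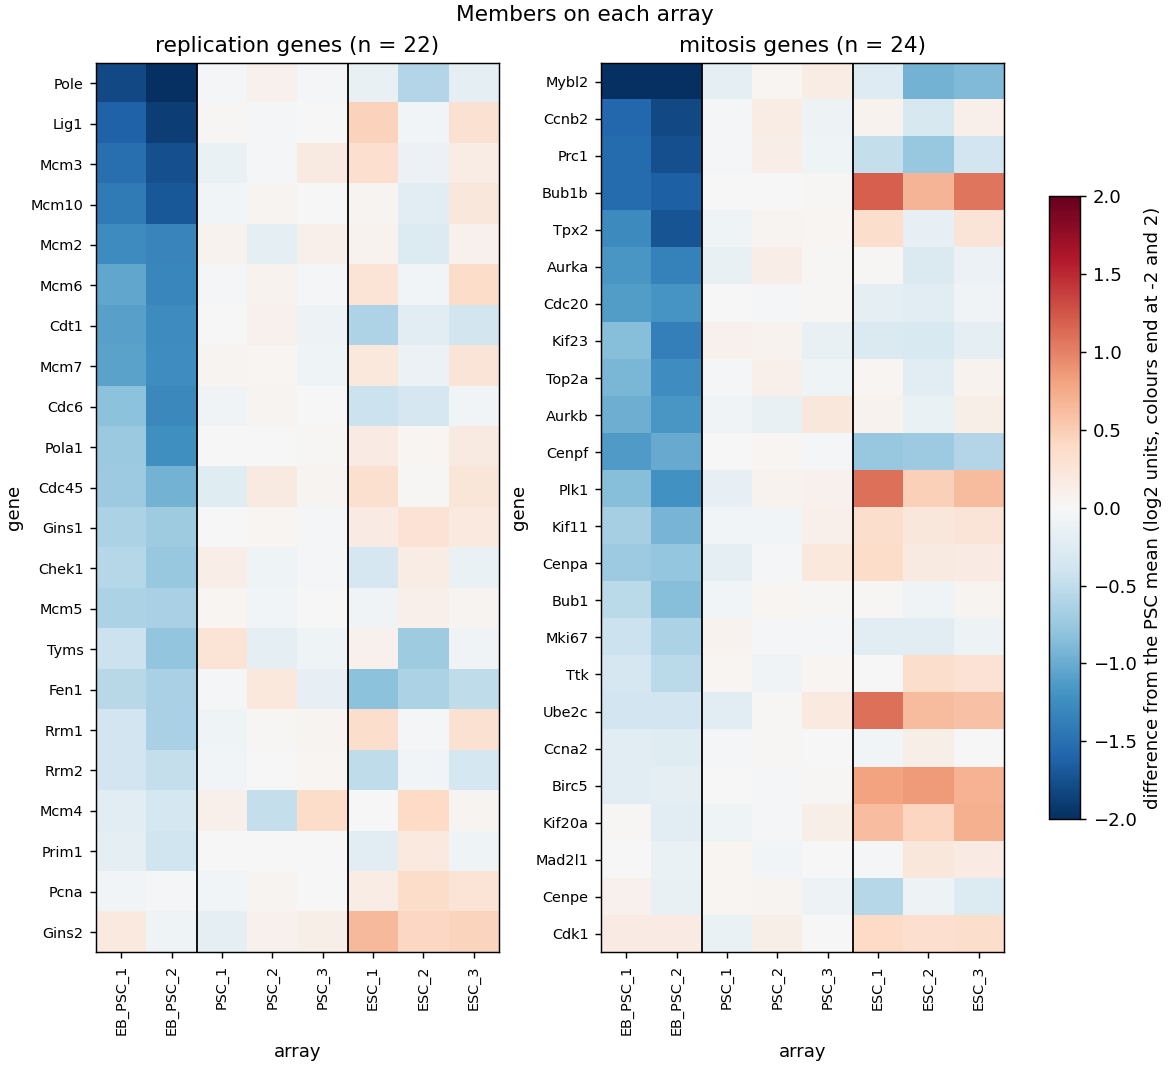
Log2 level of the 46 genes on each array as the difference from the gene's PSC mean, by class, with EB_PSC arrays first, then PSC, then ESC. The median over the 46 genes was -0.72 on EB_PSC 1 and -0.94 on EB_PSC 2.

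The embryoid bodies held other cell types. All 6 pluripotency markers (Pou5f1, Nanog, Sox2, Zfp42, Esrrb and Klf4) were lower than in PSC, with mean levels of 9.14 and 9.07 in EB_PSC and 11.3 to 11.5 in PSC. Cardiomyocyte markers were higher for 5 of 6, with mean levels of 8.99 and 9.54 in EB_PSC and 5.21 to 5.30 in PSC. Erythroid markers were higher for 3 of 3 measured, at 11.2 and 11.8 in EB_PSC and 4.48 to 4.55 in PSC, and visceral endoderm markers for 3 of 4, at 7.39 and 8.02 in EB_PSC and 5.15 to 5.23 in PSC. Fibroblast markers were higher for 5 of 6 and lower for 1 (-1.02), with mean levels of 9.57 and 9.70 in EB_PSC and 5.91 to 6.13 in PSC. The part of these cell types in the fall of replication and mitosis genes was not tested. EB_PSC 2 lay below EB_PSC 1 for 42 of the 46 genes (91.3%), where this held for 53.3% of all genes, and its cardiomyocyte, endoderm, erythroid and fibroblast means were the higher ones. RNA quality was read from Gapdh, as its 3' control signal minus its 5' control signal, which was -0.06 and -0.09 in EB_PSC and -0.06 to 0.00 in PSC (exact two-sided permutation p = 0.4). The same measure of Actb was 1.17 and 1.09 in EB_PSC and 1.04 to 1.54 in PSC (exact two-sided permutation p = 0.8). With 2 against 3 arrays the smallest p this test allows is 0.2, so neither value shows equal RNA quality.

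Among the genes of the helicase, 5 of the 6 subunits Mcm2 to Mcm7 fell in EB_PSC, with a median difference of -1.17 log2 units over the 6. Mcm3 was at 10.05 and 9.80 in EB_PSC, against 11.43, 11.52 and 11.74 in PSC, a difference of -1.64 ± 0.16 log2 units (SE; 3.11-fold lower, adjusted p = 1.78e-06). Mcm2 was at 10.74 and 10.68 in EB_PSC, against 12.08, 11.82 and 12.11 in PSC (-1.29 ± 0.15, 8.33e-06 adjusted). The arrays of the groups did not overlap for either gene. Mcm6 was at 11.34 and 11.07 in EB_PSC, against 12.34, 12.45 and 12.35 in PSC (-1.18 ± 0.15, 2.24e-05 adjusted). Mcm7 was at 12.12 and 11.93 in EB_PSC, against 13.23, 13.21 and 13.09 in PSC (-1.16 ± 0.14, 1.69e-05 adjusted). These also lay apart on every array, by about as much as each other. Mcm5 fell by the smaller amount of 0.64 ± 0.12 (adjusted p = 0.000603) on a probe set whose identifier ends in _x_at, which marks probes that may match other transcripts. Without probe sets ending in _x_at or _s_at, the Mcm5 difference was -1.53 (adjusted p = 1.97e-06).

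Mcm4, the sixth subunit, was not called on its brightest probe set, which also ends in _x_at. It was at 11.55 and 11.43 in EB_PSC, against 11.89, 11.31 and 12.15 in PSC (-0.29 ± 0.21, adjusted p = 0.289). The PSC arrays spread widely on this probe set, and PSC 2 lay below both EB_PSC arrays. Its other probe set was at 10.69 and 10.40 in EB_PSC, against 11.62, 11.68 and 11.70 in PSC, and with it Mcm4 was called (-1.12, adjusted p = 1.14e-05). Leaving out PSC 2 also gave a call on the first probe set (-0.53, adjusted p = 0.0271).

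The origin loading and activation factors moved unequally. Cdt1, which helps load the helicase, was at 12.16 and 11.98 in EB_PSC, against 13.25, 13.33 and 13.14 in PSC (-1.17 ± 0.14, adjusted p = 1.5e-05). Cdc6, its partner, fell by 1.05 ± 0.16 (adjusted p = 0.000101). Mcm10, which acts in helicase activation and polymerase recruitment, was at 8.83 and 8.56 in EB_PSC, against 10.20, 10.31 and 10.25 in PSC (-1.56 ± 0.15, adjusted p = 1.7e-06). All 3 had groups that did not overlap. Cdc45 fell by 0.84 ± 0.15 and the GINS subunit Gins1 fell by 0.67 ± 0.12 (adjusted p = 0.000516 and 0.000382). Gins2, another subunit of the same complex, was at 9.46 and 9.19 in EB_PSC, against 9.08, 9.36 and 9.38 in PSC, with overlapping arrays (0.05 ± 0.14, adjusted p = 0.796). 

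Of the genes that copy and join the strands, Pole had the largest difference of the class. Pole, the catalytic subunit of DNA polymerase epsilon, was at 8.34 and 8.09 in EB_PSC, against 10.10, 10.23 and 10.10 in PSC (-1.93 ± 0.15, 3.81-fold lower, adjusted p = 2.52e-07). Lig1, which joins Okazaki fragments, was at 9.50 and 9.23 in EB_PSC, against 11.13, 11.10 and 11.12 in PSC (-1.75 ± 0.16, 3.37-fold lower, adjusted p = 8.03e-07). The PSC arrays were within a few hundredths of each other for Lig1. Pola1, the catalytic subunit of polymerase alpha, fell by 0.98 ± 0.15 (adjusted p = 9.44e-05), and Fen1 fell by 0.60 ± 0.15 (adjusted p = 0.00419). Prim1, the primase subunit that works with Pola1, was at 10.88 and 10.67 in EB_PSC, against 11.07, 11.06 and 11.06 in PSC (-0.29 ± 0.14, adjusted p = 0.125). Its arrays did not overlap although it was not called, and the mean of its probe sets was called (-0.38, adjusted p = 0.0258). Pcna was not called and its arrays overlapped, at 13.28 and 13.30 in EB_PSC, against 13.27, 13.38 and 13.33 in PSC (-0.04 ± 0.12, adjusted p = 0.834).

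The genes of nucleotide supply were called lower, with calls that depended on single arrays or on the probe set. The ribonucleotide reductase subunit genes were lower by -0.52 ± 0.15 for Rrm1 (adjusted p = 0.0102) and by -0.43 ± 0.14 for Rrm2 (adjusted p = 0.0245). The Rrm1 call was lost without EB_PSC 2 (adjusted p = 0.112). The Rrm2 call was lost without EB_PSC 1 (0.0584), EB_PSC 2 (0.123), PSC 2 (0.058) or PSC 3 (0.0668), and under cyclic loess (0.086). These values are from a probe set of Rrm2 ending in _x_at, and without such probe sets Rrm2 was lower by more, with a difference of -0.80 (adjusted p = 0.000489). Its remaining probe set gave -0.94. Tyms, which encodes thymidylate synthase, was dim, at 5.13 and 4.77 in EB_PSC, against 5.85, 5.37 and 5.49 in PSC (-0.62 ± 0.22, adjusted p = 0.0352). The EB_PSC mean lay below the median of all values, so that no fold is given, and the mean of its 4 probe sets had the other sign (0.03, adjusted p = 0.884). The Tyms call was also lost under cyclic loess (0.0882) and without PSC 1 (0.135), PSC 3 (0.0587) or EB_PSC 2 (0.241). Chek1, the kinase that guards stalled forks, fell by 0.66 ± 0.15 (adjusted p = 0.00287).

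**Figure D3:**
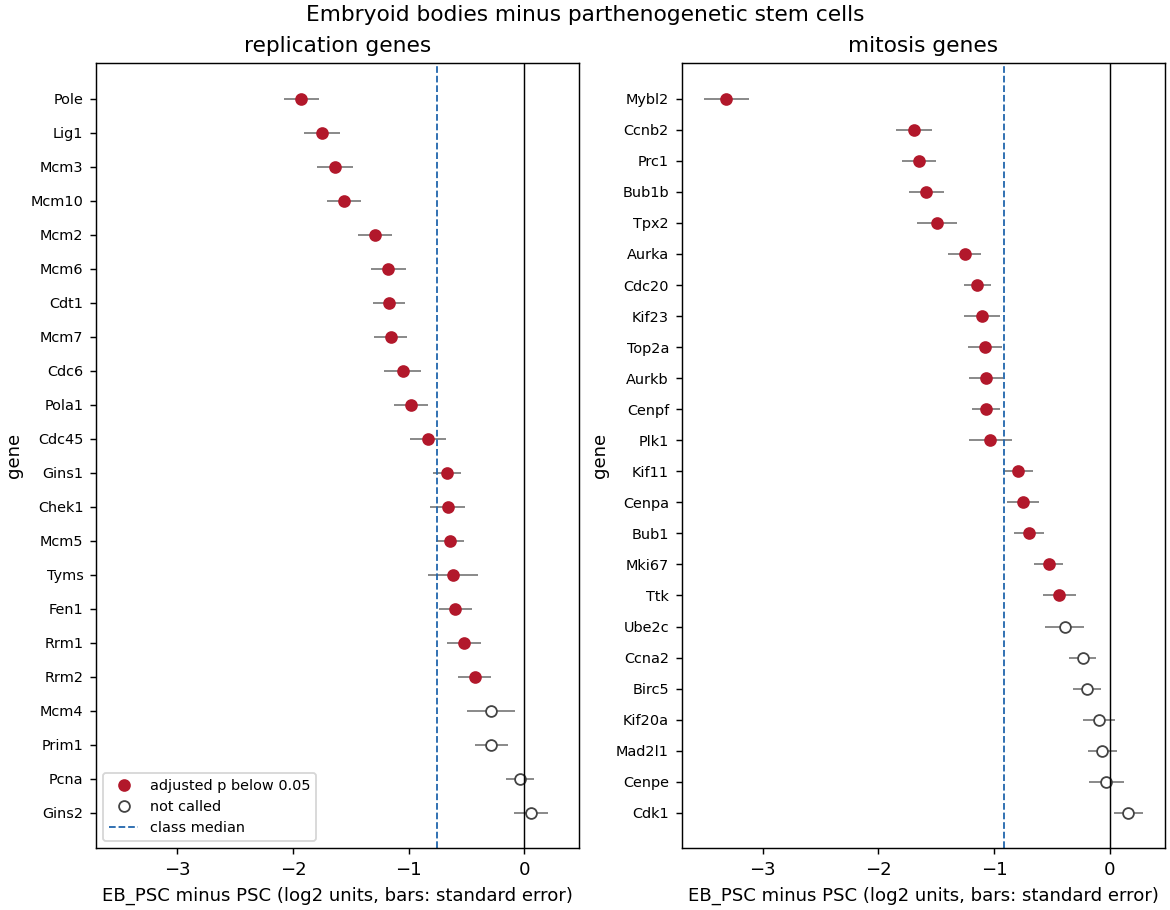
Difference EB_PSC minus PSC in log2 units for each gene, by class, with standard errors as bars; filled points were called at an adjusted p below 0.05 and the dashed line is the class median. Called genes all lie left of 0, Mybl2 farthest at -3.31.

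Among the mitosis genes Mybl2 stood apart. It encodes B-Myb, a transcription factor of the MuvB complex that activates mitotic genes. Its level was 7.95 and 7.61 in EB_PSC, against 10.91, 11.13 and 11.25 in PSC, a difference of -3.31 ± 0.20 log2 units (9.94-fold lower, adjusted p = 1.62e-08). The gap between the groups was larger than the spread within either. Without Mybl2 the median of the mitosis genes was -0.79.

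Kinases and cyclins did not all move. Ccnb2, which encodes cyclin B2, was at 10.15 and 9.92 in EB_PSC, against 11.68, 11.88 and 11.62 in PSC (-1.69 ± 0.15, 3.23-fold lower, adjusted p = 1.1e-06). Aurka, the centrosomal Aurora kinase, was at 9.61 and 9.44 in EB_PSC, against 10.62, 10.91 and 10.81 in PSC (-1.25 ± 0.14, adjusted p = 7.5e-06). The Aurora kinase of the chromosomal passenger complex, Aurkb, fell by 1.07 ± 0.15 and the Polo-like kinase Plk1 fell by 1.03 ± 0.18 (adjusted p = 4.32e-05 and 0.000373). Cdk1, the kinase that cyclin B activates, was at 11.23 and 11.23 in EB_PSC, against 10.95, 11.19 and 11.08 in PSC (0.16 ± 0.12, adjusted p = 0.327). Both embryoid body arrays lay just above the 3 PSC arrays, which made Cdk1 the 1 gene of 46 with such an order, where 25.1% of all genes had it. Ccna2, which encodes cyclin A2, was at 10.61 and 10.59 in EB_PSC, against 10.82, 10.86 and 10.84 in PSC (-0.24 ± 0.12, adjusted p = 0.126). Its arrays did not overlap either, and the mean of its probe sets was called (-0.35, adjusted p = 0.011).

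Of the spindle checkpoint genes, 3 of 4 fell. Bub1b, which encodes the checkpoint protein BubR1, was at 8.99 and 8.89 in EB_PSC, against 10.52, 10.51 and 10.54 in PSC (-1.59 ± 0.15, 3.00-fold lower, adjusted p = 1.46e-06). The checkpoint kinase gene Bub1 fell by 0.70 ± 0.13 (adjusted p = 0.000567) on its bright probe set. A much dimmer probe set of Bub1 went the other way (0.53), and with the mean of both Bub1 was not called (-0.09, adjusted p = 0.561). Ttk, which encodes the checkpoint kinase Mps1, was lower by -0.44 ± 0.14 (adjusted p = 0.0219). The Ttk call was lost under cyclic loess (0.138) and without EB_PSC 2 (0.169), PSC 1 (0.0609) or PSC 3 (0.0589). Mad2l1, which encodes the checkpoint protein Mad2, was at 11.95 and 11.81 in EB_PSC, against 11.99, 11.89 and 11.96 in PSC, with overlapping arrays (-0.07 ± 0.13, adjusted p = 0.725).

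The spindle and cytokinesis genes were lower for 4 of 5. Prc1, which bundles microtubules of the midzone, was at 9.35 and 9.13 in EB_PSC, against 10.85, 11.03 and 10.80 in PSC (-1.65 ± 0.14, 3.14-fold lower, adjusted p = 7.1e-07). Tpx2, which activates Aurka on the spindle, was at 9.32 and 8.87 in EB_PSC, against 10.51, 10.64 and 10.63 in PSC (-1.50 ± 0.17, adjusted p = 9.93e-06). Kif23, a motor of the midzone, was at 9.70 and 9.18 in EB_PSC, against 10.63, 10.61 and 10.39 in PSC (-1.10 ± 0.15, adjusted p = 5.39e-05). The 2 EB_PSC arrays differed from each other by more for Tpx2 and Kif23 than for Prc1, and all lay below PSC. Kif11, the motor that pushes spindle poles apart, fell by 0.79 ± 0.13 (adjusted p = 0.000211). Kif20a, a cytokinesis motor, was at 9.67 and 9.41 in EB_PSC, against 9.55, 9.61 and 9.75 in PSC, with overlap (-0.10 ± 0.14, adjusted p = 0.621).

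The remaining mitosis genes bear on chromosomes, centromeres and exit from mitosis. Cdc20, the activator of the anaphase-promoting complex, was at 11.96 and 11.90 in EB_PSC, against 13.09, 13.03 and 13.10 in PSC (-1.15 ± 0.12, adjusted p = 3.57e-06). Ube2c, the ubiquitin-conjugating enzyme of that complex, was at 10.54 and 10.55 in EB_PSC, against 10.72, 10.96 and 11.12 in PSC (-0.39 ± 0.17, adjusted p = 0.0794). Ube2c was called when PSC 1 (adjusted p = 0.0475) or ESC 1 (0.035) was left out, and in a fit of the compared groups alone (0.0435). Birc5, which encodes survivin of the passenger complex, was at 10.26 and 10.27 in EB_PSC, against 10.47, 10.44 and 10.48 in PSC (-0.20 ± 0.12, adjusted p = 0.205). For both genes the groups did not overlap. Top2a, which untangles chromosomes, fell by 1.08 ± 0.15 on the probe set used, while its other bright probe set gave -0.05 and averaging its 3 probe sets gave -0.43 (adjusted p = 0.0121). The kinetochore gene Cenpf fell by 1.07 ± 0.12 and the centromeric histone gene Cenpa fell by 0.75 ± 0.14. Mki67, the gene of the proliferation marker Ki-67, fell by 0.53 ± 0.12 (adjusted p = 0.00317). Cenpe, a kinetochore motor, was at 10.24 and 10.01 in EB_PSC, against 10.21, 10.21 and 10.06 in PSC (-0.03 ± 0.15, adjusted p = 0.891), while its dimmer probe set was lower (-1.66) and the mean of both was called (-0.84, adjusted p = 0.00192).

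Genes with and without the promoter words were set side by side. The 8 replication genes with an E2F word were all lower in EB_PSC, with a median difference of -1.16, and the 10 without one were lower in 8 cases, with a median of -0.61. The 16 mitosis genes with a CHR word were lower in 14 cases, with a median of -1.05, Cdk1 and Ube2c being the others. Of the 4 measured mitosis genes with a window and no CHR word, Mybl2 was lower and Birc5, Mad2l1 and Cenpe were not called. These are counts over few genes and were not tested.

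The other genes of the same pathways, listed by name, were mostly lower too. Of 43 further replication genes measured of 45 listed, 33 (76.7%) were lower in EB_PSC, 2 higher and 8 not called (median difference -0.75), where 25.2% of all genes were lower and 18.8% higher, and the remaining listed genes are not analysed here. The largest falls were those of Pold2, a subunit of polymerase delta (-2.21 ± 0.17), Uhrf1, which keeps DNA methylation at forks (-2.02 ± 0.16), Ticrr, a firing factor (-1.75 ± 0.17), and Rfc1, of the clamp loader (-1.60 ± 0.16). The 2 that rose were Pole3, a small polymerase epsilon subunit (0.77 ± 0.13), and Pclaf, a Pcna partner (0.41 ± 0.16, adjusted p = 0.0495). Of 56 further mitosis genes, 40 (71.4%) were lower, 1 higher and 15 not called (median -0.82). The condensin gene Ncapd2 (-2.15 ± 0.17), the separase gene Espl1 (-2.13 ± 0.18), the cyclin F gene Ccnf (-1.67 ± 0.18) and the kinetochore gene Zwilch (-1.64 ± 0.14) fell most, and the kinetochore gene Zwint rose (1.22 ± 0.12). These lists were not chosen blind to the data and add no independent support.

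The second comparison set the parthenogenetic against the embryonic stem cells, both undifferentiated. It gave 7 lower and 5 higher of 46 genes (26.1% called), where 20.8% of all genes were called, 11.7% lower and 9.07% higher. Among genes above the median of all values these shares were 17.9% lower and 13.3% higher. Over the 46 genes the median was -0.02 log2 units, and over all genes it was 0.01. Replication genes were lower for 1 and higher for 2 of 22, and mitosis genes were lower for 6 and higher for 3 of 24. None of the 12 differed by 1 log2 unit, where 3.02% of all genes were called with such a difference. All 6 fibroblast markers were lower in PSC, at mean levels of 5.91 to 6.13 in PSC and 7.04 to 7.45 in ESC, which were kept on fibroblasts. Of the 6 pluripotency markers 2 were lower in PSC, Zfp42 (-2.73, adjusted p = 1.07e-08) and Pou5f1 (-0.61, adjusted p = 0.00479), and the mean level of the 6 was 11.3 to 11.5 in PSC and 11.9 to 12.2 in ESC. The part of either marker list in the differences of replication and mitosis genes was not tested. The 3' minus 5' difference of Gapdh was -0.06 to 0.00 in PSC and 0.08 to 0.17 in ESC (exact two-sided permutation p = 0.1, the smallest that 3 against 3 arrays allow). That of Actb went the other way, at 1.04 to 1.54 in PSC and 0.69 to 1.13 in ESC (exact two-sided permutation p = 0.2).

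Bub1b had the largest difference, at 10.52, 10.51 and 10.54 in PSC, against 11.72, 11.20 and 11.59 in ESC (-0.98 ± 0.13, 1.97-fold lower, adjusted p = 0.000203). Birc5 was at 10.47, 10.44 and 10.48 in PSC, against 11.27, 11.31 and 11.15 in ESC (-0.79 ± 0.11, adjusted p = 0.000185). Ube2c was at 10.72, 10.96 and 11.12 in PSC, against 12.04, 11.57 and 11.52 in ESC (-0.78 ± 0.15, adjusted p = 0.00262). All PSC arrays lay below all ESC arrays for these. Plk1 was at 9.35, 9.58 and 9.59 in PSC, against 10.62, 9.99 and 10.13 in ESC (-0.74 ± 0.16, adjusted p = 0.00569). Kif20a was at 9.55, 9.61 and 9.75 in PSC, against 10.25, 10.06 and 10.35 in ESC (-0.58 ± 0.12, adjusted p = 0.00466). These also lay apart, and these 5 genes were called under every alternative tried other than the limit of 1 log2 unit. Cdk1 was at 10.95, 11.19 and 11.08 in PSC, against 11.47, 11.40 and 11.42 in ESC (-0.36 ± 0.11, adjusted p = 0.0329). The Cdk1 call was lost without PSC 1 (0.14), PSC 3 (0.075), ESC 1 (0.088) or ESC 3 (0.0835), and under a repeated quantile normalization (0.0894) and cyclic loess (0.0943). Gins2 was at 9.08, 9.36 and 9.38 in PSC, against 9.92, 9.68 and 9.72 in ESC (-0.50 ± 0.13, adjusted p = 0.0147), and its call was lost without PSC 1 (0.0799) or ESC 1 (0.0588).

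Among the genes higher in PSC, Cenpf was called under every alternative other than the limit of 1 log2 unit. It was at 10.86, 10.90 and 10.84 in PSC, against 10.11, 10.14 and 10.28 in ESC (0.69 ± 0.11, 1.61-fold higher, adjusted p = 0.000589). Mybl2 was at 10.91, 11.13 and 11.25 in PSC, against 10.84, 10.15 and 10.21 in ESC (0.69 ± 0.18, adjusted p = 0.0134). ESC 1 lay close to the PSC arrays for Mybl2, and its call was lost without PSC 2 (0.0553), PSC 3 (0.0589) or ESC 3 (0.0649). Prc1 was at 10.85, 11.03 and 10.80 in PSC, against 10.41, 10.14 and 10.51 in ESC (0.54 ± 0.13, adjusted p = 0.00953). Its groups did not overlap, and the call was lost without PSC 2 (0.0524). Without probe sets ending in _x_at or _s_at, Prc1 was not called (0.25, adjusted p = 0.256).

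Whether the replication genes Fen1 and Cdt1 were higher in PSC depended on the probe set. Fen1 was at 11.65, 11.91 and 11.53 in PSC, against 10.88, 11.06 and 11.19 in ESC (0.66 ± 0.13, adjusted p = 0.00298) on a probe set ending in _x_at. Its other probe set was at 9.12, 9.19 and 9.35 in PSC, against 9.82, 9.56 and 9.64 in ESC, and with it Fen1 was called lower (-0.45, adjusted p = 0.0158). No direction can be given for Fen1. Cdt1 was at 13.25, 13.33 and 13.14 in PSC, against 12.63, 13.01 and 12.87 in ESC (0.40 ± 0.13, adjusted p = 0.0384), and its other bright probe set had the opposite sign (-0.41). The mean of its probe sets showed no difference to call (-0.01, adjusted p = 0.955), and the call was lost without PSC 1 (0.108), PSC 2 (0.136), PSC 3 (0.054), ESC 1 (0.153) or ESC 3 (0.0837). Mcm2 and Mcm5 were called lower once probe sets ending in _x_at and _s_at were left out (-0.53 with adjusted p = 0.0143, and -0.45 with 0.0308), and with Fen1 and Gins2 the count of replication genes lower in PSC was then 4 in place of 1. With array weights the count was also 4, with Mcm6 (-0.31, adjusted p = 0.0371), Pcna (-0.26, adjusted p = 0.039) and Rrm1 (-0.29, adjusted p = 0.0452) beside Gins2.

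**Figure D4:**
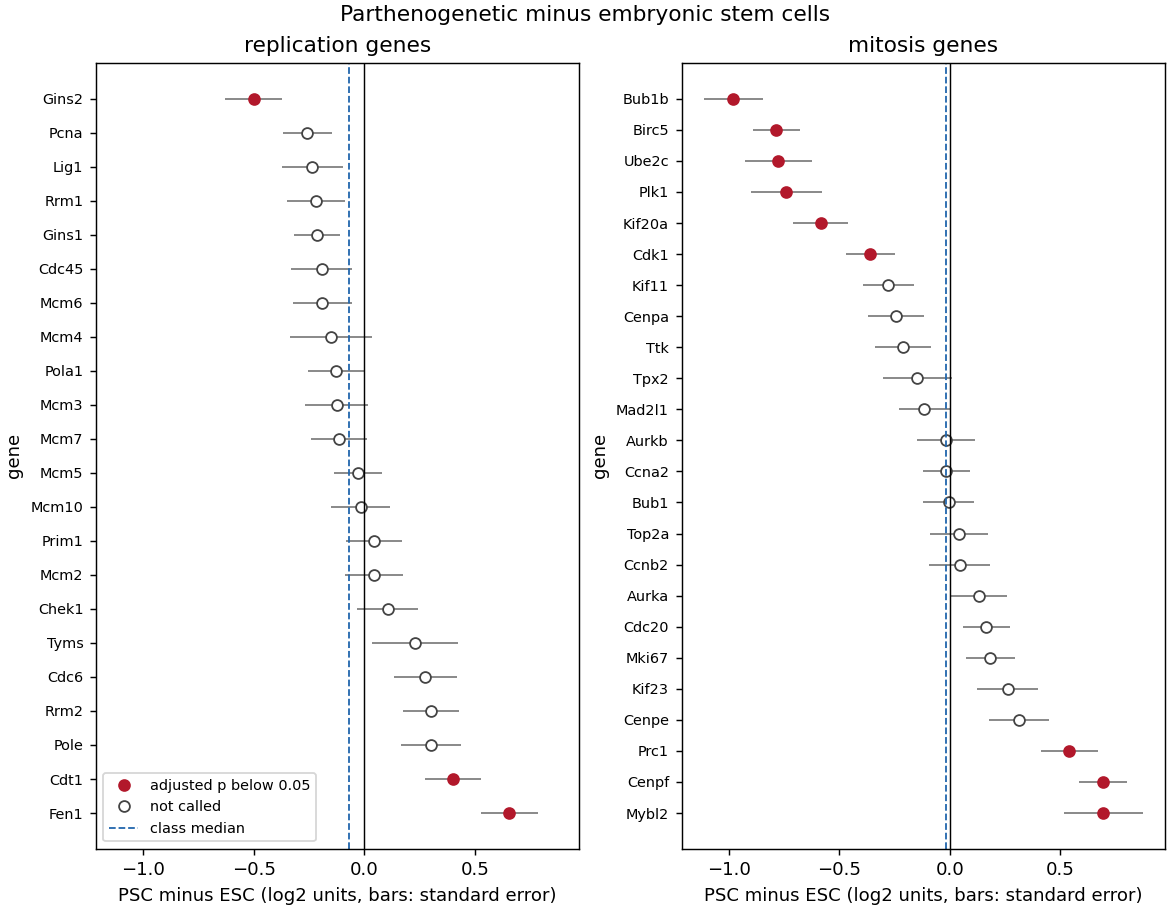
Difference PSC minus ESC in log2 units for each gene, by class, with standard errors as bars; filled points were called at an adjusted p below 0.05 and the dashed line is the class median. Called genes lie on both sides of 0, from Bub1b at -0.98 to Mybl2 at 0.69.

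Among the further genes of the pathways, 9 of 43 replication genes (20.9%) were lower in PSC, 5 (11.6%) higher and 29 not called, where 11.7% of all genes were lower and 9.07% higher. The lower ones included Mcmbp, which binds Mcm proteins (-1.11), the GINS gene Gins4 (-0.87), the fork protection gene Tipin (-0.87) and Pole3 (-0.68), and the higher ones the kinase gene Cdc7, which fires origins (0.84), the polymerase delta gene Pold1 (0.81), Mcm8 (0.72) and Rpa1, of the single-strand binding protein (0.53). Of 56 further mitosis genes 4 (7.14%) were lower, 9 (16.1%) higher and 43 not called. Among genes above the median of all values the shares were 17.9% and 13.3%, and nothing is read from these counts. Cenpw, a centromere gene (-0.97), Mad1l1, a checkpoint gene (-0.63), Foxm1, a transcription factor gene of mitosis (-0.36), and Ckap2, a spindle gene (-0.34), were lower. The securin gene Pttg1 (0.82), the passenger gene Cdca8 (0.72), the motor gene Kif14 (0.70, dim in ESC) and Sgo2a, which guards cohesion (0.58), were the largest rises.

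Probe sets of a gene could be compared for 31 of the 46 genes, which had several above the median of all values. For EB_PSC minus PSC, 30 of these had the same sign on all and 1, Bub1, did not, and 15 of 31 had a spread over 0.5 log2 units between probe sets. For PSC minus ESC only 14 had the same sign on all, and 17 did not. Of these 17, only Bub1b, Cdt1 and Fen1 were called on the probe set used, and the sign of a difference near 0 says little. For 10 genes, the brightest probe set ending in _x_at was set beside the brightest ending in neither _x_at nor _s_at. Both lay above the median of all values. The former gave the higher PSC minus ESC difference in 10 of 10. It gave the smaller EB_PSC minus PSC difference in size in 8 of 10, and was the brighter in 5 of 10. Mean levels within a pair could differ widely, at 5.97 and 10.3 for Tpx2 and 6.34 and 10.4 for Gins1. A second Cdc20 probe set ending in _x_at, left out by this choice, gave -0.48 in PSC minus ESC, against -0.35. Aurkb, also left out, gave -1.19 on _x_at and -1.07 on _s_at in EB_PSC minus PSC. Averaging a gene's probe sets, dim ones included, moved some differences by over 1.5 times without ending the call. For EB_PSC minus PSC these were Tpx2 (-0.75), Aurka (-0.74), Rrm2 (-0.72), Cdc45 (-0.48), Chek1 (-0.37), Rrm1 (-0.29), Mcm5 (-1.06) and Top2a (-0.43), of which Rrm2 and Mcm5 were larger in size than on the probe set used and the others smaller. For PSC minus ESC they were Bub1b (-0.46) and Cenpf (0.44). The cause was not tested.

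**Figure D5:**
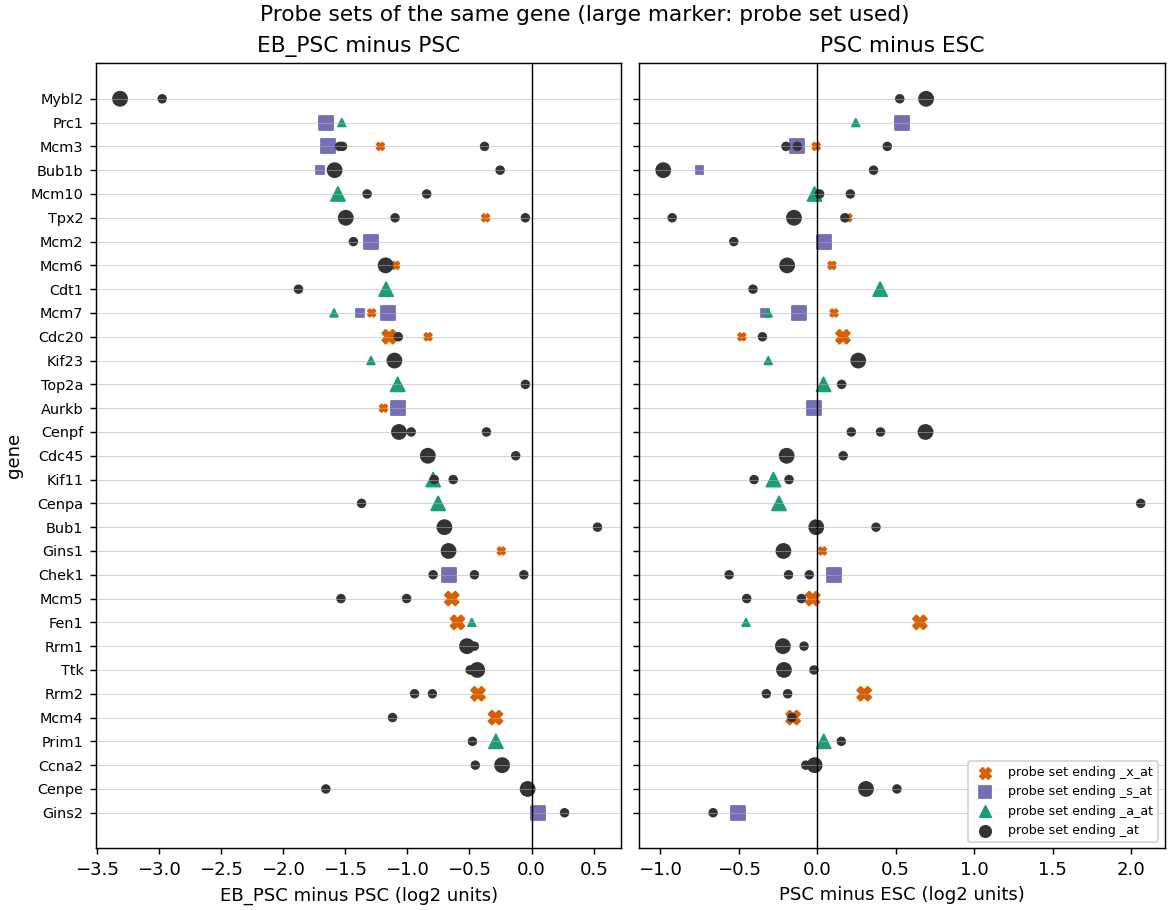
Difference of every bright probe set of the 31 genes with several, in log2 units, for EB_PSC minus PSC (left panel) and PSC minus ESC (right panel), with the marker shape giving the ending of the probe set's identifier and a large marker the probe set used. In the left panel nearly all probe sets lie below 0, and in the right panel those of 17 genes lie on both sides of it.

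The third comparison, EB_PSC against ESC, shares its arrays with the others and is given side by side. It called 16 of 22 replication genes and 20 of 24 mitosis genes lower and 0 higher, where 25.6% of all genes were lower and 19.3% higher. Among genes above the median of all values these shares were 35.9% lower and 25.6% higher. By at least 1 log2 unit 9 replication and 11 mitosis genes were lower, against 9.23% of all genes. Bub1b was at a mean of 8.94 in EB_PSC, 10.5 in PSC and 11.5 in ESC, an ordering in which each neighbour differed. Birc5, Ube2c, Kif20a and Gins2 were called lower between EB_PSC and ESC and between PSC and ESC, but not between EB_PSC and PSC. Their group means were 10.3, 10.5 and 11.2 for Birc5, 10.5, 10.9 and 11.7 for Ube2c, 9.54, 9.64 and 10.2 for Kif20a, and 9.33, 9.27 and 9.77 for Gins2, in EB_PSC, PSC and ESC in that order. Mybl2 had its highest mean in PSC, at 7.78 in EB_PSC, 11.1 in PSC and 10.4 in ESC. The ESC 2 array was the lowest of the ESC arrays for 27 of the 46 genes (58.7%), where this held for 37% of all genes. The 3' minus 5' difference of Gapdh was -0.06 and -0.09 in EB_PSC and 0.08 to 0.17 in ESC (exact two-sided permutation p = 0.2). That is the smallest p that 2 against 3 arrays allow. The Actb difference was 1.17 and 1.09 in EB_PSC and 0.69 to 1.13 in ESC (exact two-sided permutation p = 0.4).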

How the data were processed

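The deposited values are log2 expression values that the authors made with RMA, per the submitters' processing notes. The labels name Bioconductor, and neither source gives versions or settings. They ran from 2.56 to 14.9 over 45101 probe sets, with array medians of 5.39 to 5.47, so that a shift of most transcripts one way would not show. Their number of arrays limits the precision. The platform annotation named 1 gene for 34958 probe sets, more than 1 for 932 and no gene for 9211.

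A single limma 3.58.1 fit in R 4.3.3 (lmFit, contrasts, eBayes) held all 8 arrays, with the group as its only term, 5 residual and 8.07 prior degrees of freedom. It tested 18194 genes, two-sided, with Benjamini-Hochberg adjustment over all of them, and a gene was called below 0.05. Differences are given with the standard error (SE) of the fit. Where a group's mean lay below 5.44 no fold is given. Promoter words and figures used Python 3.11.15, pandas 2.3.3 and Matplotlib 3.10.9.

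The genes and lists were chosen with earlier results of these data known. Per-array values are given for the 8 largest called differences of each class in EB_PSC minus PSC, for every gene not called there, and for the largest called differences of PSC minus ESC (up to 8 each way). Of the other pathway genes, the differences of the 4 largest called changes per list and direction are given. The Fen1, Cdt1, Mcm2, Mcm4, Mcm5, Bub1, Cenpa, Cenpe, Rrm2, Top2a and Tyms probe sets were named after their values were seen. The fit did not pair samples by replicate number. The alternatives tried were cyclic loess, quantile normalization applied again, a filter on dim genes, the mean of a gene's probe sets, removal of probe sets ending in _x_at or _s_at, the compared groups alone, a trended robust prior, each array left out, weights per array, a replicate block, a limit of 1 log2 unit, and removal of Chek1 and Mybl2.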

Additional observations from a re-analysis of the deposited data

How the results depend on the processing

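In EB_PSC minus PSC, 30 of the 35 calls held under every alternative to the model that gave a value, which were 17 for each of these genes and 16 for Aurkb, not measured without probe sets ending in _x_at or _s_at. Bub1, Rrm1, Rrm2, Tyms and Ttk were lost in at least 1. In PSC minus ESC, 6 of 12 held, and in EB_PSC minus ESC 30 of 36, where Mki67, Bub1, Gins2, Cenpa, Cenpf and Chek1 were lost in at least 1. With the limit of 1 log2 unit, replication genes lower numbered 9 in EB_PSC minus PSC, 0 in PSC minus ESC and 9 in EB_PSC minus ESC; those higher in PSC minus ESC numbered 0. Mitosis genes under that limit numbered 0 lower and 0 higher in PSC minus ESC and 11 lower in EB_PSC minus ESC.

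Class medians kept their sign in EB_PSC minus PSC. The replication median there was -0.60 under cyclic loess and -1.02 without probe sets ending in _x_at or _s_at; the mitosis median was -0.74 under cyclic loess, -0.74 with the mean of probe sets, -0.79 without those endings and -0.79 without Chek1 and Mybl2. In EB_PSC minus ESC the replication median was -0.66 after repeated quantile normalization, -0.54 after cyclic loess and -1.07 without those endings, and the mitosis median was -0.89, -0.76 after the same normalizations and -0.85 with the mean of probe sets; cyclic loess called 1 mitosis gene, Cenpe, higher. In PSC minus ESC the replication median was -0.19 and the mitosis median -0.12 without those endings, and the mitosis median was 0.072 after repeated quantile normalization and 0.076 after cyclic loess. Replication genes lower there numbered 4 without those endings and 4 with array weights; those higher numbered 4 under cyclic loess, 0 with the mean of probe sets and 1 without those endings. The cause was not tested.

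Single genes changed sign. With the mean of probe sets, Tyms was 0.026 in EB_PSC minus PSC, Cdt1 -0.010 and Cenpa 0.68 in PSC minus ESC, and Bub1 0.10 and Fen1 -0.44 in EB_PSC minus ESC. Cenpa was then called higher in PSC than in ESC (adjusted p = 0.000347), where the probe set used gave no call (-0.24, adjusted p = 0.214). Its other bright probe set, dim in ESC at a mean of 5.14, gave 2.06 in PSC minus ESC. Without those endings Mcm2 was -0.53 and Fen1 -0.45 in PSC minus ESC, and Fen1 -0.93 in EB_PSC minus ESC.

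Leaving out each array in turn gave 15 to 18 replication and 16 to 18 mitosis genes lower in EB_PSC minus PSC, with medians of -0.87 to -0.68 and -0.97 to -0.79. In PSC minus ESC it gave 0 to 2 replication genes lower and 1 to 3 higher, and 5 to 6 mitosis genes lower and 1 to 4 higher, with medians of -0.10 to -0.02 and -0.07 to 0.00. In EB_PSC minus ESC it gave 14 to 17 and 18 to 20 lower, with medians of -0.89 to -0.67 and -1.06 to -0.94.

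The replicate number as a block left 1 replication gene higher in PSC minus ESC, in place of 2. It ended the calls of Ttk in EB_PSC minus PSC (adjusted p = 0.0605) and of Cdk1 (0.0593) and Cdt1 (0.0578) in PSC minus ESC, and of Mki67 (0.0796), Gins2 (0.0524) and Cenpf (0.061) in EB_PSC minus ESC. Same-numbered arrays deviated from their group means with correlations of -0.14 and 0.04 between EB_PSC and PSC. These were -0.25, -0.07 and -0.04 between PSC and ESC, and 0.16 and 0.22 between EB_PSC and ESC. Differently numbered arrays gave -0.18 to 0.18, -0.13 to 0.21 and -0.22 to 0.10 in the same order. The 2 EB_PSC arrays deviate from their mean by equal and opposite amounts, so their correlations are not independent. This check cannot settle whether replicate numbers pair the samples.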
